A study of Homo sapiens with 30 samples.

Results

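Acetylation of lysine 9 of histone H3 (H3K9Ac) was profiled in MDA-MB-231 cells with and without SAP30 by ChIP-seq, the sequencing of immunoprecipitated chromatin. The 4 H3K9Ac libraries, 2 of parental cells and 2 of SAP30-KO1 cells, were chosen by the antibody and genotype in the labels, out of 30 samples in the series. Of these 30, 18 had a list of peak summits, and the other 12, inputs and total histone H3, were not analysed here. MDA-MB-231 is an established triple-negative breast cancer line of mesenchymal character. Parental cells served as the control. SAP30-KO1 cells carried a CRISPR/Cas9 knockout of SAP30 and were, per the study's methods, a mixture of several single-cell clones, so the line is neither a single clone nor an unselected population. Both lines were grown in DMEM with fetal bovine serum, with no other treatment named in the labels, and both were immunoprecipitated with the same H3K9Ac antibody. Nothing in the labels says that replicate libraries came from separate cultures, so the spread between them may be technical.

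Acetyltransferases such as KAT2A and KAT2B place acetyl groups on lysine 9, bromodomain and YEATS proteins read them, and histone deacetylases remove them. H3K9Ac marks active promoters, just downstream of the transcription start site, and also enhancers. HDAC1 and HDAC2 work within the SIN3 corepressor, in which SIN3A or SIN3B is the scaffold and SAP30 is a small subunit that bridges the scaffold to other partners. The comparison asks which H3K9Ac peaks differ between cells with and without this subunit.

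Each list gives the positions of peak tops, called summits, from the authors' peak calling, with the −log10 of a q-value as score. The score was used only to rank a summit within its own list, from 0% for the best to 100% for the last. Summits of the 4 lists within 1000 bp of each other were merged into 48358 regions, of which 15603 lay at a promoter, meaning within 1000 bp of an annotated start site, whether of a coding or a long noncoding gene. The other 32755 are called distal. In a cell population, fewer cells with the mark and less mark per cell cannot be told apart, and the sequencing depth is unknown.

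The 5 windows that follow are examples of sequence at which the lines differed, with no better-ranked shared region among them. Each is 300 bp long and lies around the mean summit position in GRCh37 (hg19), on the plus strand, free of annotated exons and untranslated regions. Capitals mark CG dinucleotides and matches to TGANTCA, the core element of AP-1 (FOS and JUN dimers). The merged region around the KLF3 window, intronic, held a summit of each parental library and none of SAP30-KO1. The regions around the CADPS window, at a promoter, and the CXCR4 window, intergenic, held a summit of each SAP30-KO1 library and none of parental cells. The regions around the CXXC5 and PPARG windows, both intronic, held a summit of all 4 libraries and ranked worse in SAP30-KO1.
KLF3, chr4:38669128-38669427: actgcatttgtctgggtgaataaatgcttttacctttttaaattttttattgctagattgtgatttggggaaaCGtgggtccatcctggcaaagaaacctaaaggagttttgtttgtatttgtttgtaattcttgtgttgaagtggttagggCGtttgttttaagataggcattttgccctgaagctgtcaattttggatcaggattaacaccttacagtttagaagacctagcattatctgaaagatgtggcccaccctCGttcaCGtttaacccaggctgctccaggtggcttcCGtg
CADPS, chr3:62859900-62860199: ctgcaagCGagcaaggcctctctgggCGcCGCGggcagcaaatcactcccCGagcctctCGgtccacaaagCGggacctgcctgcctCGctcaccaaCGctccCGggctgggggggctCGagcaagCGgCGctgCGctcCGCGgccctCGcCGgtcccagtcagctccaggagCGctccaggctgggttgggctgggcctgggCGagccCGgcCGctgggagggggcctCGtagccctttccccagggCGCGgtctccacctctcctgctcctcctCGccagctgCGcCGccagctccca
CXCR4, chr2:136886896-136887195: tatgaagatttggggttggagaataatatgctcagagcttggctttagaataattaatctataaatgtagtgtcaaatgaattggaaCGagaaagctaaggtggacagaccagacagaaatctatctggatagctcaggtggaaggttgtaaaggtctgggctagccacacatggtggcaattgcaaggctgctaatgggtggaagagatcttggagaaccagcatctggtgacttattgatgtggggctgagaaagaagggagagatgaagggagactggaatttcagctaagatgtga
CXXC5, chr5:139038707-139039006: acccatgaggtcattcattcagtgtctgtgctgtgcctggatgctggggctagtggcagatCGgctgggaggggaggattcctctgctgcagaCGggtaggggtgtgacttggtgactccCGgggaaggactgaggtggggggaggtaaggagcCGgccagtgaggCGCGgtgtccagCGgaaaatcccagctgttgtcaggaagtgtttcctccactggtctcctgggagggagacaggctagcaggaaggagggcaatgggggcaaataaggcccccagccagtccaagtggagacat
PPARG, chr3:12447070-12447369: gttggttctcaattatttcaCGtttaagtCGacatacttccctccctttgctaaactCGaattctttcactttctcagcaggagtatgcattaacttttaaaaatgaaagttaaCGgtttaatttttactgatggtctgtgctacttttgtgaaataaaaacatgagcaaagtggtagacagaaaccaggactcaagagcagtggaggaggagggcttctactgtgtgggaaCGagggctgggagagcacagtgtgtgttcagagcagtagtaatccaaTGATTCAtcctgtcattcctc
The gained CADPS window was a CpG-rich promoter sequence with 28 CG dinucleotides and 73.7% G and C. Gained promoters had lower medians, of 8 CG dinucleotides and 55.7% G and C. The gained CXCR4 window, with 1 CG dinucleotide and 43.3% G and C, was unlike it. The lost KLF3 window had 5 CG dinucleotides and 40.7% G and C. Of the 5 windows only that of PPARG held a TGANTCA match.

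The parental lists held 54621 and 53650 summits on the autosomes and chromosome X, and the SAP30-KO1 lists held 50861 and 50806. No pair of lists shared more than 221 summits on the identical base, so none was a copy of another. The lowest score was between 1.302 and 1.312 in every list. With 2 libraries against 2, the smallest p that a two-sided exact permutation test can give is 0.33, so no comparison of single values over libraries could pass a threshold of 0.05. For the number of summits p was 0.33. The labelled cell type was checked against marker genes. Of 10 markers of mesenchymal triple-negative cells, 9 had a promoter summit in all 4 libraries, and the exception, SNAI2, had it in 3. Of 7 blood markers, 6 had a promoter summit in no library, the exception being CD14, and the 3 annotated endothelial markers had none. Of 15 luminal and epithelial markers, 7 had a promoter summit in all 4 libraries and 6 had it in none, among them GATA3, FOXA1 and CDH1. ESR1, the estrogen receptor, had a promoter summit in both SAP30-KO1 libraries, at list ranks of 69.3% and 59.9%, and in neither parental library. The H3K9Ac lists do not show the deletion itself. The SAP30 promoter had a summit in all 4 libraries, and its rank among gene promoters was 50.3% and 55.7% in parental cells and 37.6% and 50.2% in SAP30-KO1 cells.

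The share of summits at promoters overlapped between the lines. It was 33.3% and 35.0% in parental cells and 36.6% and 33.9% in SAP30-KO1 cells (exact permutation test, two-sided, p = 0.667). Among the best 10% of each list the promoter share was higher, 92.5% and 91.9% in parental cells and 93.2% and 93.7% in SAP30-KO1 cells (exact permutation p = 0.33, n = 2). Among the best 25% it was 80.7% and 81.6% against 83.7% and 83.4% (exact permutation p = 0.33, n = 2). In both of these strata each SAP30-KO1 library was above each parental library, by less than 4 percentage points. Among the best 50% the lines overlapped, with 54.5% and 56.5% against 59.1% and 56.1% (exact permutation p = 0.667). They also overlapped among the last 50%, with 12.2% and 13.6% against 14.2% and 11.7%. Summits beyond 1000 bp and up to 10 kb from a start site, the flanks of promoters, made up 25.8% of each parental list and 24.6% and 24.5% of the SAP30-KO1 lists. A library had 1.49 and 1.52 summits per region it held in parental cells, and 1.504 and 1.43 in SAP30-KO1 cells. Regions with 3 or more summits numbered 3290 and 3443 in parental cells and 3019 and 2571 in SAP30-KO1 cells.

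Acetylated promoters were nearly all shared by the lines, and the regions that differed were mostly weak and distal. All 4 libraries held 25658 regions, 13077 at promoters and 12581 distal. The regions held by both parental libraries and by neither SAP30-KO1 library, called lost, numbered 1551, which was 5.18% of the 29963 regions held by both parental libraries. Of these lost regions, 214 lay at promoters. Gained regions, held by both SAP30-KO1 libraries and by neither parental library, numbered 1102, which was 3.79% of 29057, and 144 of them lay at promoters. At the same definition, the 4 patterns that join 1 parental with 1 SAP30-KO1 library held 782, 1128, 704 and 786 regions. The lost count therefore exceeded all 4 of these, whereas the gained count was within their range. These counts were not adjusted for list length, and the parental lists were longer, with 54621 and 53650 summits against 50861 and 50806. Lost and gained counts are thus not on an equal footing. Of the promoter regions held by both parental libraries 1.56% were lost, against 8.22% of the distal ones. For gained regions these shares were 1.06% and 6.17%.

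**Figure D1:**
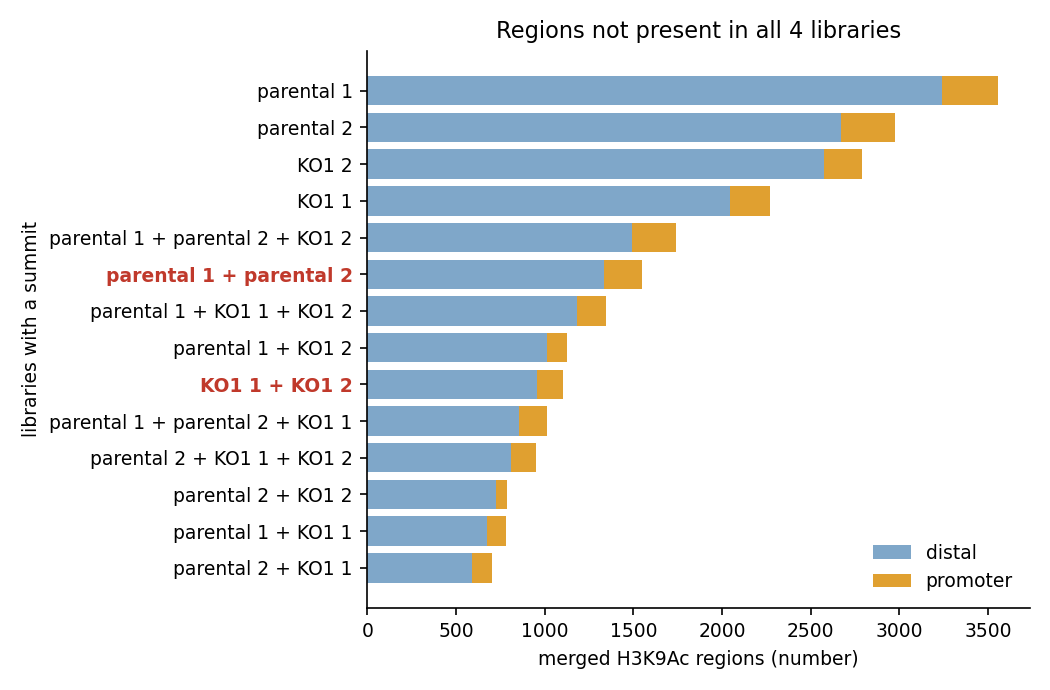
Number of merged H3K9Ac regions (horizontal axis) for each combination of libraries with a summit, other than all 4, with distal and promoter regions stacked. Regions in both parental libraries alone (1551) and in both SAP30-KO1 libraries alone (1102) are in red type, and regions in a single library were the most numerous.

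Between single libraries, the share of regions missing was hardly larger between the lines than within them. Of the promoter regions of a library, 4.26% to 4.90% were missing from the other library of the same line, and 3.92% to 6.21% were missing from a library of the other line. For distal regions these shares were 21.2% to 27.3% and 22.4% to 31.7%. The highest were regions of parental replicate 1 missing from SAP30-KO1 replicate 1, the list that held the fewest regions (33826).

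Loss and gain depended on the rank of a region far more than on its position. Of the promoter regions in the best 20% of the parental lists by mean rank, 0.148% were lost, and of the distal ones 0.524%. In the last 20%, 31.5% of the promoter regions and 31.1% of the distal regions were lost. Within each band of 20% the shares at promoters and at distal sites were thus much closer to each other than the overall 1.56% and 8.22%. Gained regions followed the same order, from 0.106% and 0.415% in the best 20% to 26.7% and 23.1% in the last 20%. The median mean rank was 74.7% for lost regions and 75.9% for gained ones. Of distal regions without a SAP30 summit in either SAP30 library of parental cells, 15.3% were lost and 12.0% gained. With a SAP30 summit in both, 3.19% were lost and 2.40% gained. Loss and gain thus both had the lower share where SAP30 was present, and these shares were not matched for rank.

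**Figure D2:**
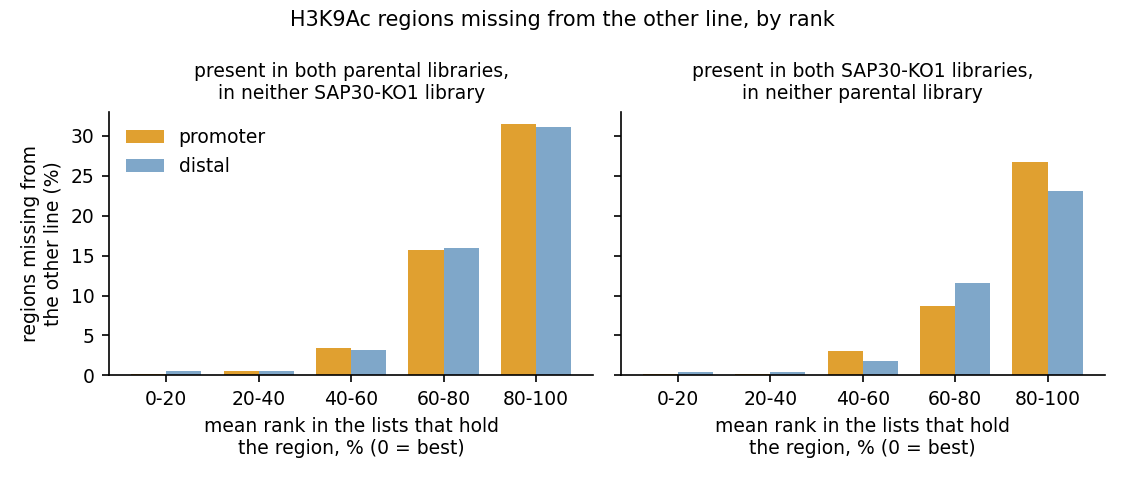
Percentage of regions present in both libraries of a line and missing from both of the other (vertical axis), by mean rank in the lists that hold them, in bands of 20% from best to last, for parental (left) and SAP30-KO1 (right). The bars reach 31.5% in the last band and stay under 1% in the first 2 bands, alike for promoter and distal regions.

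A lost region beside a shared one can be a summit placed elsewhere in the same acetylated stretch, so distance was added. Of the lost regions, 935 (60.3%) had no SAP30-KO1 summit within 3000 bp, and of the gained regions, 742 (67.3%) had no parental summit within 3000 bp. These are called standing apart. The best-ranked of the lost ones was at CSF3, which encodes granulocyte colony-stimulating factor (chr17:38171279-38172015, promoter). Its rank was 19.2% and 23.4% in the parental lists, and the nearest SAP30-KO1 summits were 3193 and 4065 bp away. SAP30 had a summit there in both of its libraries, and H3K4me3 had one in 2 parental libraries and 1 SAP30-KO1 library. The next was the promoter of ENG, the TGF-beta coreceptor endoglin (chr9:130616651-130617342), with ranks of 26.0% and 24.7% and the nearest SAP30-KO1 summit 15218 bp away. There H3K4me3 and Pol II each had a summit in 2 parental libraries and none in SAP30-KO1. The other 4 lost regions named by the rule were a noncoding RNA promoter on chromosome 18 whose nearest protein-coding gene was CCDC68, an intronic region 40129 bp from a start site of PPP2R5C, an intron of DNM2 (dynamin 2), and the intron of KLF3 shown above. KLF3 encodes a zinc finger repressor, and its lost region (chr4:38669230-38669325) ranked at 23.4% and 48.0%, with Pol II in 2 parental libraries and none in SAP30-KO1. H3K4me3 had a summit there in 2 libraries of each line. The nearest SAP30-KO1 summits of H3K9Ac were 3242 and 3234 bp away, just beyond the 3000 bp limit. At the ENG, PPP2R5C and KLF3 regions Pol II summits were missing from SAP30-KO1 together with H3K9Ac. At CSF3 Pol II had a summit in 1 library of each line, and at the CCDC68 and DNM2 regions it had none. Of all lost regions, 12.1% had a Pol II summit of a parental library within 1000 bp and 7.16% one of SAP30-KO1. For regions held by all 4 H3K9Ac libraries these shares were 64.8% and 57.8%, so Pol II summits were fewer there too.

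The best-ranked gained region standing apart was in an intron of TNFRSF1A, a receptor of tumor necrosis factor (chr12:6442467-6443253), at 26.3% and 42.2% of the SAP30-KO1 lists. The nearest parental summits were 7634 and 7740 bp away. The gained region at the promoter of CADPS, which encodes a secretory vesicle priming factor (chr3:62860014-62860086), ranked at 31.5% and 52.8% and its nearest parental H3K9Ac summit was 265924 bp away. H3K4me3 had a summit at that promoter in all 4 of its libraries, so the promoter was marked in both lines and acetylated above threshold in SAP30-KO1 alone. The gained intergenic region 10271 bp from the start site of CXCR4, a chemokine receptor (chr2:136887018-136887733), had 2 summits in each SAP30-KO1 library, at best ranks of 31.8% and 52.9%. The others named by the rule were a noncoding promoter next to ASXL1, an intron of ZNF385D and an intron of TMEM132D. Regions standing apart thus began at ranks of 19.2% and 23.4% for loss and of 26.3% and 42.2% for gain.

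Rank changes within the shared regions were small and went both ways. Ranks were taken among the 25658 shared regions in each list, and a rank change is the SAP30-KO1 mean minus the parental mean in percentage points, so that a negative value is a better rank in SAP30-KO1. The median absolute difference between a pair of libraries was 6.95 points within parental cells, 6.53 within SAP30-KO1 cells and 7.01 to 7.66 between the lines. A region was called better ranked when both SAP30-KO1 ranks were better than both parental ranks and the means differed by at least 10 points, and worse ranked for the reverse. By this definition 2683 regions (10.5%) were better ranked and 2731 (10.6%) worse. When the 2 replicates numbered 1 were set against the 2 numbered 2, so that each side held both lines, 1843 and 1780 regions passed. The other such grouping gave 1819 and 1821. The lines thus differed at 21.1% of shared regions against 14.1% and 14.2%, and no p is given, since regions are not replicates.

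Promoters leaned slightly to better ranks and distal regions to worse ones. The mean rank over all shared regions is fixed in each list, so the distal mean must move opposite to the promoter mean. Among shared promoter regions 9.08% were better ranked and 8.10% worse, and among distal ones 11.9% and 13.3%. The mean rank of promoter regions was 32.3% and 32.5% in parental cells and 32.2% and 31.9% in SAP30-KO1 cells. Promoters with summits of SAP30, SIN3A and SIN3B in both of each factor's libraries were better ranked in 7.69% of 5345 cases and worse in 5.58%. Distal regions with SAP30 were worse ranked more often (13.8% against 10.5%), and distal regions without SAP30 were better ranked more often (14.5% against 11.5%). Distal regions with Pol II in both parental libraries had 13.5% worse and 8.51% better, and those with H3K4me3 had 14.3% worse and 9.88% better. Regions with a mean of over 4 parental summits had 15.6% worse and 9.90% better of 384. That class was set by the same parental H3K9Ac lists that the ranks are compared with, so its lean is not independent of the choice. The SAP30, SIN3, Pol II and H3K4me3 classes were set by summits in parental cells alone. In each of the classes named so far the mean ranks of both SAP30-KO1 libraries lay on the same side of both parental libraries (exact permutation p = 0.33, the smallest possible). Distal regions without Pol II overlapped, with mean ranks of 76.99% and 76.76% in parental cells and 76.68% and 77.00% in SAP30-KO1 cells. Promoters without SAP30 overlapped too, with 12.3% better and 10.8% worse, the same lean as at promoters with SAP30, SIN3A and SIN3B. So did promoters with SAP30 and neither SIN3A nor SIN3B (15.8% better, 14.9% worse). Distal regions with SAP30, SIN3A and SIN3B also overlapped (9.17% better, 12.4% worse).

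Worse ranks were most frequent on the long arm of chromosome 11. Of its 806 shared regions, 34.9% were worse ranked and 3.97% better, and the mean rank was 42.9% and 42.5% in parental cells against 50.13% and 49.97% in SAP30-KO1 cells. The median change was +7.85 points, whereas the next highest arm, 16q, had +1.81. At the other end stood 4p with −4.17 and Xq with −3.24. On 11q 92 regions (9.18%) were lost and 17 (1.93%) gained. Along chromosome 11, stretches of 10 Mb below 50 Mb had medians between −2.78 and +0.0848 points. All stretches from 50 Mb on had medians from +7.08 to +11.1 points, with the exception of 80 to 90 Mb at +0.389. The same arm also ranked worse in the other marks compared between these lines. For these marks only 11p, 11q, 4p, Xp and Xq were looked at. The median change on 11q was +6.28 points for H3K4me3, with 28.2% of 557 shared regions worse, and +11.04 for Pol II, with 40.6% of 404 worse. On Xq it was −4.31 for H3K4me3 and −8.84 for Pol II. The input libraries were not analysed here, so whether the DNA itself differs between the lines on these arms was not tested. Values on 11q are named as such below. Without 11q, 2651 of 24852 shared regions (10.7%) were better ranked and 2450 (9.86%) worse, at the same ranks.

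**Figure D3:**
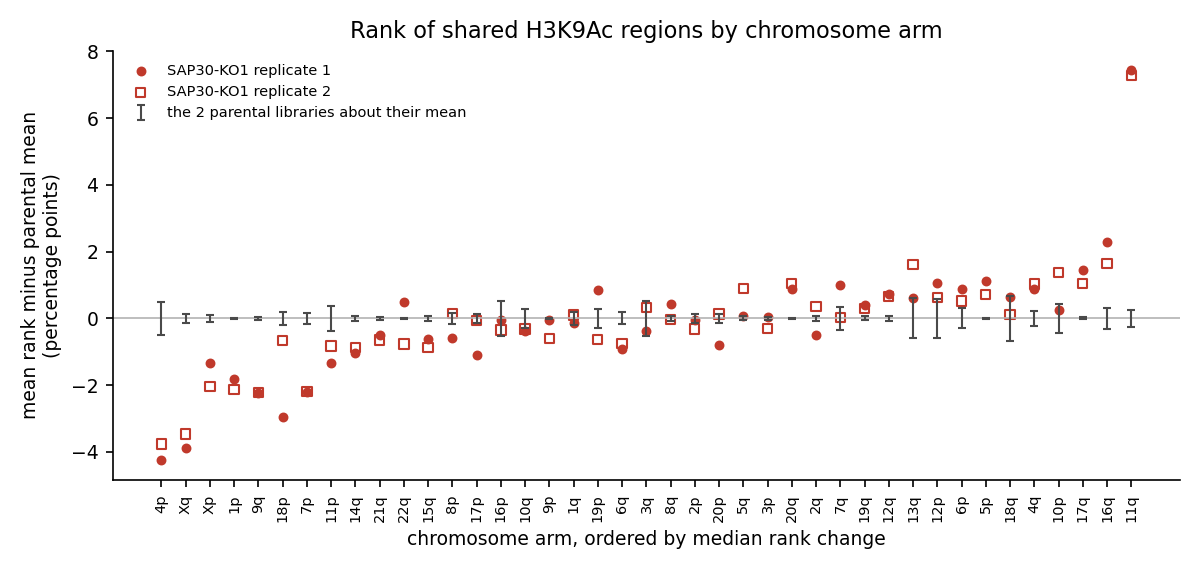
Mean rank of shared H3K9Ac regions on each chromosome arm in each SAP30-KO1 library, minus the parental mean, in percentage points, with bars spanning the 2 parental libraries. On 11q both SAP30-KO1 libraries lie over 7 points above the parental mean, and on 4p and Xq both lie over 3 points below it.

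At the level of genes, 12044 protein-coding genes had a summit within 1000 bp of a start site in all 4 libraries and 7064 had none in any. A promoter was ranked by its best summit among these 12044. The better call was passed by 1446 promoters (12.0%) and the worse call by 1437 (11.9%). The 2 groupings that put both lines on each side gave 1112 and 1076, and 1137 and 1112. Ranks among promoters spread out differences at the top of the lists. By rank in the whole list 243 promoters were better and 389 worse, so most promoter changes were of less than 10 points on that scale. On 11q, 238 of 470 promoters were worse ranked and 7 better, with a median change of +13.9 points against −0.0581 over all 12044.

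The promoters that passed in H3K9Ac also tended to move in H3K4me3, which was not used for the call. Among better-ranked promoters the median H3K4me3 rank change was −6.48 points, with 27.1% better and 5.16% worse by the same definition. Among worse-ranked promoters it was +7.93, with 3.02% better and 30.4% worse, and +7.04 without 11q. Over all it was +0.161, with 11.6% better and 12.9% worse. These H3K4me3 values cover the promoters with its summit in all 4 of its libraries. Such promoters were 11814 of the 12044, 1433 of the better-ranked and 1425 of the worse-ranked. Pol II, taken in the same way at 10492 of the 12044, moved less. Its median change was −1.63 points at better-ranked and +1.46 at worse-ranked promoters, and the latter was +0.0234 without 11q. The H3K4me3 and Pol II libraries are separate immunoprecipitations of the same lines.

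The largest changes toward a better rank included ARTN, which encodes the neurotrophic factor artemin and is among the genes the study followed. Its promoter ranked at 84.3% and 85.6% in parental cells and at 37.2% and 29.4% in SAP30-KO1 cells, a change of −51.7 points. The groups did not overlap. In the whole lists these ranks were 24.6% and 26.7% against 9.15% and 6.96%, and the summit lay 118 to 179 bp from a start site in all 4 libraries. SAP30 had a summit at this promoter in both of its libraries, SIN3A in none and SIN3B in 1, and the rank also changed by −11.9 points for H3K4me3 and −17.1 for Pol II. ARTN was the third largest of the 1446. CLCC1, which encodes an endoplasmic reticulum chloride channel, moved from 85.0% and 67.2% to 20.1% and 21.8%. The first by size, ARID1B, a subunit of the BAF remodeller, moved from 97.8% and 97.9% to 21.8% and 7.03%, but its change was +1.75 points with a window of 3000 bp, since the stronger parental summits lay 1422 and 1495 bp from a start site. The other 7 of the 10 largest were ZBTB5, PRKAR2A, MEX3C, SLC25A38, CRYZL1, LRIG2 and XPNPEP1, with changes of −48.9 to −45.1. The change of MEX3C was carried in large part by parental replicate 1, without which it was −19.6, and it was −76.9 without parental replicate 2. With a window of 3000 bp the changes of ZBTB5, MEX3C and CRYZL1 were −21.2, −24.2 and −28.7. With a window of 500 bp, ZBTB5 (−22.3), SLC25A38 (−36.3) and CRYZL1 (−7.84) did not pass. PRKAR2A, a regulatory subunit of protein kinase A, moved from 66.0% and 53.0% to 13.7% and 7.93%, with its summit at most 122 bp from a start site. Among these 10 promoters none was on 11q.

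Among the 10 largest changes toward a worse rank, 5 were on 11q, namely C11orf65, ARHGAP42, DNAJC4, SNX19 and FDX1. C11orf65 moved from 9.75% and 9.48% to 69.2% and 65.8%, the largest change at +57.9 points. ARHGAP42, which encodes a GTPase-activating protein, moved from 18.0% and 20.9% to 62.2% and 81.6%. The other 5 were PLEKHN1, KRT19, ZNF106, THBS3 and FBXO41. KRT19, a keratin of luminal epithelium, moved from 21.2% and 36.7% to 75.8% and 79.5%, a change of +48.7 points, with +28.8 for H3K4me3. For Pol II the change was +29.9, but the lines overlapped. SAP30-KO1 replicate 1 alone carried it, with 10.6% and 14.4% in parental cells against 70.7% and 13.99% in SAP30-KO1 cells. KRT19 lies on 17q, whose median change was +1.08. XBP1, another of the luminal and epithelial markers, was better ranked, from 27.0% and 14.3% to 11.2% and 5.91%, a change of −12.1 points, or −5.75 without parental replicate 1. For THBS3, a thrombospondin, a single SAP30-KO1 library carried the change, with 97.9% and 15.3% against 6.30% and 11.1%, and the change was +6.53 without SAP30-KO1 replicate 1 and +2.65 with a window of 3000 bp. Of all better-ranked promoters 98.3% passed again with the window of 3000 bp, and of the worse-ranked 96.7%.

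**Figure D4:**
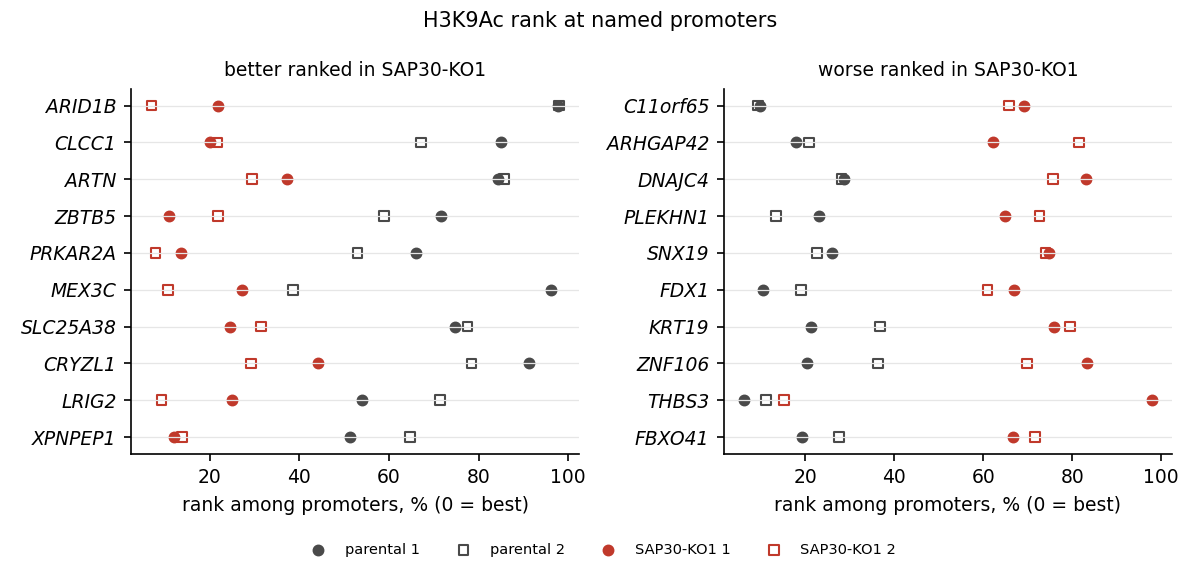
Rank among 12044 H3K9Ac promoters (0% best, 100% last) in the 2 parental (grey) and 2 SAP30-KO1 (red) libraries for the 10 promoters with the largest change in each direction. Grey and red points separate in each gene, most narrowly for THBS3, where a SAP30-KO1 library at 15.3% lies next to a parental one at 11.1%.

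The study followed genes it grouped as coactivated or corepressed by SAP30. Of the coactivated group, 4 genes had a promoter summit in all 4 libraries. RDX, which encodes the cytoskeletal linker radixin, was the only 1 of these to pass by rank among promoters. Over all promoters 12.0% were better ranked and 11.9% worse. RDX ranked at 23.6% and 3.44% in parental cells and at 55.7% and 28.9% in SAP30-KO1 cells (+28.7 points). Its gene window held 14 and 18 summits against 8 and 12. RDX lies on 11q, where 50.6% of 470 promoters were worse ranked. Its change was +24.1 points for H3K4me3 and +35.5 for Pol II. For H3K4me3 the lines overlapped, with 37.6% and 3.09% against 26.0% and 62.9%. The H3K9Ac change was +15.2 points without SAP30-KO1 replicate 1 and +18.6 without parental replicate 2. By rank in the whole list it was +7.59 points, under the minimum of 10. The promoter of the growth factor gene PDGFB had a summit in parental replicate 1 alone, at a list rank of 79.3%. That of ADM2, a peptide hormone gene, had a summit in both parental libraries at 58.7% and 76.2% and in 1 SAP30-KO1 library at 92.7%. The promoters of PDGFD, CLDN1 and NOTCH3 had weak summits in all 4 libraries, with ranks from 89.9% to 99.4%, and changes of +2.56, +5.44 and +0.820 points. By rank in the whole list the promoter of CLDN1, a tight junction gene, went from 37.5% and 36.1% to 66.4% and 66.4%, without overlap and by +29.6 points, whereas those of PDGFD and NOTCH3 overlapped. In the corepressed group, ARTN passed as described. IPO13, a nuclear import receptor gene next to ARTN, ranked at 19.9% and 28.7% against 14.3% and 33.1%, so the lines overlapped. HSPA6 ranked at 95.0% and 94.2% against 88.7% and 88.2%, which did not overlap but changed by −6.15 points, under the minimum. In the whole lists these ranks were 40.03% and 40.8% against 31.5% and 28.3%, a change of −10.5 points. The study chose these genes with results of the same lines in view, so their directions are not independent evidence.

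Genes of the SIN3 complex themselves had acetylated promoters in all 4 libraries (19 of 19), 2 better ranked and 4 worse, against 12.0% and 11.9% of all promoters. HDAC1, the catalytic subunit, moved most. Its promoter ranked at 26.1% and 24.6% in parental cells and at 69.2% and 71.7% in SAP30-KO1 cells, a change of +45.1 points, with summits 234 to 298 bp from a start site. The H3K9Ac replicates of each line lay within 3 points of each other. H3K4me3 changed by +12.4, but the lines overlapped, with 1.56% and 6.42% against 6.37% and 26.5%. Pol II changed by −12.7, mostly through SAP30-KO1 replicate 1, with 81.8% and 77.8% against 57.3% and 76.9%. The others ranked worse were BRMS1 (+24.5, on 11q), SINHCAF (+23.4) and ING1 (+21.9), the last through SAP30-KO1 replicate 2 at 46.5%, without which it was +2.31. Without the same library SINHCAF changed by +15.5. SAP130 was better ranked (−19.2, or −11.2 without parental replicate 2). SIN3A passed with −11.0, but its change was +10.5 with a window of 500 bp, and −5.70 without SAP30-KO1 replicate 1. HDAC2 had 8 and 5 summits in its gene window in parental cells and 4 and 3 in SAP30-KO1 cells, a mean fall of 3.0, or 1.5 without parental replicate 1. The list median was +2.67 points against −0.0581 over all promoters.

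Writers, other erasers and readers of acetyl-lysine were also acetylated at nearly the same promoters. The acetyltransferase list of 13 genes includes noncatalytic subunits of their complexes, such as TADA2A and TADA2B. All 13 had a promoter summit in all 4 libraries, with TADA2B better ranked (−11.2) and TADA2A (+11.5) and KAT6B (+13.0) worse. Of 15 other deacetylase genes, SIRT7 moved from 72.5% and 62.8% to 36.0% and 38.4% (−30.5), and HDAC11 was also better ranked (−11.4), with summit numbers of 8 and 5 against 11 and 12. SIRT1 was worse ranked (+21.8, or +11.8 without SAP30-KO1 replicate 1 and +13.0 without parental replicate 2). Among 8 reader genes, MLLT3, a YEATS domain subunit of the super elongation complex, moved from 54.3% and 52.2% to 77.2% and 89.9% (+30.3), and TAF1, a bromodomain subunit of TFIID on Xq, was better ranked (−13.1). The better and worse counts were 1 and 2 of 13, 2 and 1 of 15, and 1 and 1 of 8, against 12.0% and 11.9% of all promoters, and the medians were +2.78, −2.55 and +2.14 points. The whole-list ranks of all genes named in the complex and the writer, eraser and reader lists changed by less than 10 points, except for HDAC1 and MLLT3. Leaving out a library took 5 of these changes under 10 points, namely +4.55 and +7.24 for TADA2A, −8.14 and −9.09 for TADA2B, +8.92 for KAT6B, −9.32 and −7.84 for HDAC11, and −7.72 and −8.89 for TAF1.

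Of 24 angiogenesis genes, 18 had a promoter summit in all 4 libraries, with 4 better ranked and 2 worse, against 12.0% and 11.9% of all promoters. VEGFA, the main vascular endothelial growth factor, moved from 32.3% and 21.6% to 4.66% and 8.98% (−20.2), and HIF1A, the oxygen-regulated transcription factor, from 23.5% and 18.2% to 3.64% and 8.35% (−14.8). ADM (−12.8) and ANGPTL4 (−10.1) were the other 2, and neither passed with a window of 3000 bp (−7.91 and −8.74). VEGFC, the lymphangiogenic member of the family, moved from 6.02% and 13.9% to 39.8% and 31.2% (+25.5), and VEGFB, on 11q, changed by +12.0, or +2.04 without SAP30-KO1 replicate 1. The vascular growth factor genes thus passed in both directions, and the list median was +0.905. TYMP had a promoter summit in 1 parental library alone and KDR in 1 SAP30-KO1 library alone, while PDGFA and CCN1 had it in 1 parental and 2 SAP30-KO1 libraries. CCN2, a matricellular protein gene, had 7 summits in each parental library and 4 and 3 in SAP30-KO1.

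Among 24 cell motility genes, 22 had a promoter summit in all 4 libraries, of which 3 were better ranked and 2 worse, against 12.0% and 11.9% of all promoters. ITGA5 (−11.9), MYH9 (−13.6) and FSCN1 (−11.1) were better ranked, the last with +4.51 when the window was 3000 bp, and PLAUR (+14.7) and S100A4 (+11.5) were worse. Summit numbers were lower for CD44 (11 and 11 against 7 and 9), ITGA6 (25 and 20 against 18 and 15) and MYH9 (30 and 28 against 25 and 26). With lists of equal length CD44 and MYH9 did not pass, and without parental replicate 1 the fall for ITGA6 was 3.5 in place of 6.0. MYH9, nonmuscle myosin heavy chain, thus had a better-ranked promoter and fewer summits at once. Of 16 heat shock genes, HSPA9 was better ranked (−22.8) and HSP90AB1 worse (+14.7), against the same background. HSPA1A had no promoter summit in 1 SAP30-KO1 library. The 2 HSPA1 genes are near-identical copies, so reads there cannot be assigned with certainty. Of 26 developmental transcription factor genes, 16 had a promoter summit in no library and 7 in all 4, and none of these 7 passed. GATA6 had 10 summits in each parental library and 5 and 3 in SAP30-KO1. Among the housekeeping genes reported here, GUSB was better ranked (−18.3, or −11.3 without parental replicate 1), and B2M (+19.8) and GAPDH (+10.5) were worse. Of the named angiogenesis, motility, heat shock and housekeeping genes that passed the promoter call, ANGPTL4 and FSCN1 alone changed by 10 points or more by rank in the whole list.

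Some genes differed in the number of summits over the gene body with 5000 bp at each side. Of the 6661 genes with enough summits to pass, 302 (4.53%) had fewer in both SAP30-KO1 libraries than in both parental libraries, with a mean difference of at least 3, and 104 (1.56%) had more. The groupings with both lines on each side gave 109 and 66, and 101 and 86. With all lists limited to the length of the shortest, 165 genes had fewer and 163 more, so the excess of genes with fewer summits went with the longer parental lists. Overlapping genes share summits, and the 302 and 104 genes lay in 286 and 89 separate loci. Most were long genes, with median lengths of 130630 and 167670 bp.

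ARHGAP26, a GTPase-activating protein gene, had 31 summits in each parental library and 15 and 21 in SAP30-KO1, the largest fall. ARHGAP42, of the same family, had 12 and 10 against 2 and 3, and SETBP1, a SET-binding protein gene, had 12 and 11 against 3 and 2. SETBP1 held 12 regions, of which 2 were shared and 3 were lost. GRIK4, a kainate receptor subunit gene on 11q, had 17 and 19 against 10 and 8, while Pol II had 4 and 8 summits there in parental cells and none in either SAP30-KO1 library. The other named genes with fewer summits were ATXN1, HIVEP3, IQCJ-SCHIP1, CNIH3, SYN3 and ASAP1. The fall in the mean summit number was 3.5 for ATXN1 without parental replicate 1, 5.0 for HIVEP3 and 5.5 for CNIH3 without parental replicate 2, and 5.5 for ASAP1 without SAP30-KO1 replicate 2, against 10.5, 10.5, 10.0 and 9.0 with all libraries. Of the 10, HIVEP3 and CNIH3 did not pass with lists of equal length, and ARHGAP42 and GRIK4 are on 11q.

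GABBR2, which encodes a subunit of the GABA-B receptor, had 2 and 0 summits in parental cells and 14 and 16 in SAP30-KO1 cells. Of the 13 regions in its window 8 were gained and none was shared, and the best list rank of the 13 was 40.7%. Its window had no Pol II summit in any library and 1 or 2 H3K4me3 summits in each. SRGAP3, which encodes a GTPase-activating protein of neurons, had 1 and 2 against 10 and 11. Of its 10 regions 5 were gained, and the best list rank of the 10 was 8.75%. In both genes no parental library had more than 2 summits, and each SAP30-KO1 library had at least 10. PPFIBP2, a liprin gene, had 8 and 5 against 13 and 13, with 4 gained regions, and SLC2A1, the glucose transporter GLUT1, had 18 and 22 against 26 and 26 with none gained. ANKS1B (2 and 3 against 8 and 9), GNAO1 (5 and 6 against 11 and 12), AFF3, KIAA1217, AK5 and RNF220 were the others. Without SAP30-KO1 replicate 2 the mean rise was 4.5 for AFF3 and 3.5 for RNF220, and without SAP30-KO1 replicate 1 it was 4.5 for KIAA1217, against 7.0, 6.0 and 7.0 with all libraries. All 10 passed with lists of equal length. None of these 10 genes is on 11q.

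**Figure D5:**
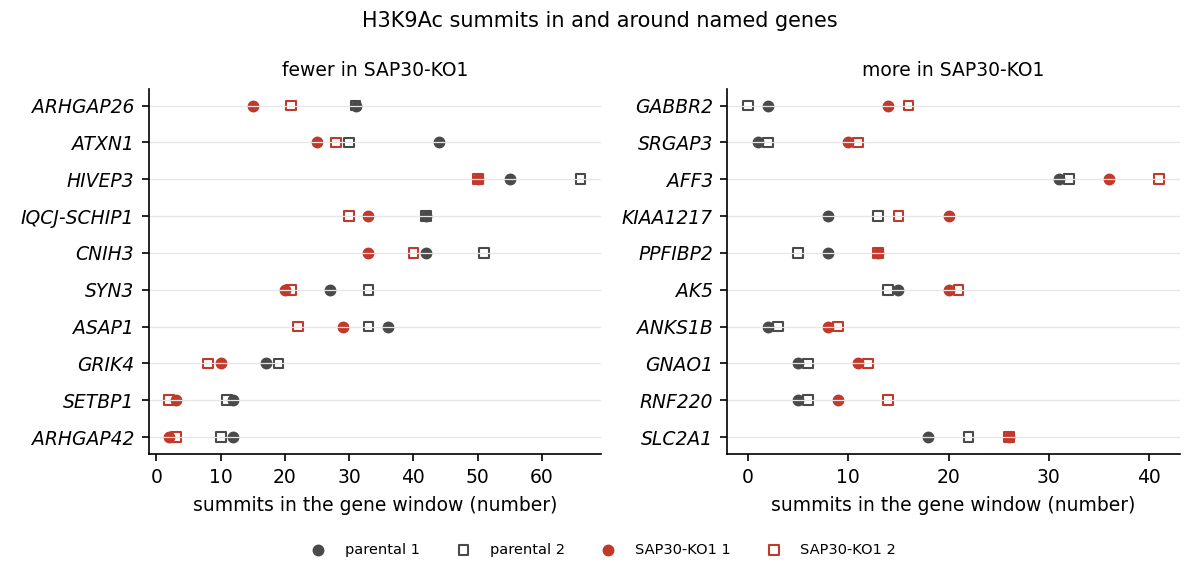
Number of H3K9Ac summits in the gene with 5000 bp at each side, in the 2 parental (grey) and 2 SAP30-KO1 (red) libraries, for the 10 loci with the largest fall and the 10 with the largest rise. GABBR2 went from 2 and 0 to 14 and 16, and ARHGAP26 from 31 and 31 to 15 and 21.

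Among distal regions shared by all libraries, the largest change was in an intron of CXXC5, which encodes a CXXC zinc finger protein (chr5:139038277-139039414), shown above by sequence. Its rank among shared regions was 8.23% and 26.3% in parental cells and 97.3% and 98.6% in SAP30-KO1 cells, a change of +80.7 points. SAP30 and SIN3B had a summit there in both of their libraries, and H3K4me3 and Pol II had one in all of theirs. The region was thus still held by all lists, near the end of those of SAP30-KO1. An intronic region of PPARG, the nuclear receptor of adipocyte differentiation (chr3:12446480-12447932), moved from 53.2% and 54.0% to 94.0% and 96.0%, with SAP30 and SIN3B in both of their libraries. Regions nearest to MICAL2, LINC02218 and FAM220A were the other 3, with changes of +38.3 to +46.4. The region nearest to MICAL2 moved from 20.7% and 21.4% to 39.9% and 94.9%, and without SAP30-KO1 replicate 2 its change was +18.9. In the opposite direction stood regions nearest to XPA (−42.2), DEK (−40.4), PELP1 (−36.9), GADD45B (−35.2) and LFNG (−35.0). The last moved from 89.5% and 47.6% to 32.2% and 34.8%, and without parental replicate 1 its change was −14.1. The region nearest to DEK, intergenic and 43303 bp from its start site (chr6:18308075-18309106), moved from 89.7% and 89.7% to 48.6% and 50.1%. SAP30 and SIN3B were also in both of their libraries at the better-ranked GADD45B region, as was SAP30 at PELP1 and SIN3B at LFNG. At XPA and DEK neither had a summit, and at MICAL2, LINC02218 and FAM220A SAP30 had one in 1 library. Of the 12581 shared distal regions, 6707 had SAP30 in both libraries.

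Sequence was described over windows of 300 bp around the summits, with both strands searched. Shared promoters had a median of 68.3% G and C and 26 CG dinucleotides, and shared distal regions had 49.0% and 4. Lost promoters, at 57.0% and 9, and gained promoters, at 55.7% and 8, were both poorer in CG than shared ones. The GC box, GGGCGG, was in 59.9% of shared promoters, 31.3% of lost and 29.9% of gained promoters. TGANTCA was in 19.1% of lost distal regions standing apart, 16.0% of gained ones and 16.7% of shared distal regions, and in 9.68% of the 10533 distal regions held by 1 library only. The windows of better-ranked and worse-ranked shared distal regions held it in 16.6% and 15.7%. The GC box was in 7.35% of lost and 6.47% of gained distal regions standing apart, against 13.2% of shared distal regions and 6.87% of the distal regions held by 1 library only. A match is a description of the window and says nothing about occupancy of a factor.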

How the data were processed

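ChIP-seq of H3K9Ac in MDA-MB-231 cells was analysed from 4 deposited lists of peak summits, 1 per library, grouped as parental or SAP30-KO1 by the labels. Per the submitters' processing notes the tools were FastQC 0.11.2, Bowtie2 2.3.3.1, Picard and MACS2 2.1.0, with build hg19. The options, the control of each list and the depth are not given in the sources used here. The values the authors deposited are −log10 q-values, which depend on depth and enrichment, so they served only as ranks within a list. Each list was called on its own library and starts at a threshold near 1.302, so weaker peaks are absent from it.

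Summits on the autosomes and X were used, and each list had 1 summit elsewhere. Annotation was GENCODE release 44 lifted to GRCh37, and sequences came from GRCh37. The lists of SAP30, SIN3A, SIN3B, H3K4me3 and Pol II were used beside H3K9Ac. Work was done in Python 3.11.15 with numpy 2.4.6, pandas 2.3.3 and scipy 1.17.1. The calls were tested on simulated lists. Values per library were compared by exact permutation tests, and regions and genes were described by counts. The members, gene lists and rules were chosen with earlier results of these data known. The genes named were SAP30, those the study followed, list members that passed a call or lacked a promoter summit in a library, the 10 largest promoter changes and 10 largest summit number changes in each direction, 6 lost and 6 gained regions standing apart, and 5 distal regions in each direction. Same-numbered libraries did not deviate together (correlation of deviations −0.00943 over shared regions), so the replicate number was not used for pairing. Alternatives changed the merge distance, promoter window, gene window, rank scale, minimum change, list length and chromosomes, and left out each replicate. A member of the housekeeping list is not reported here.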

Additional observations from a re-analysis of the deposited data

How the results depend on the processing

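Rank changes and losses come without a test, since regions are not replicates, depth is unknown, and weak peaks sit at the end of lists that stop at a threshold, so absence from a list is not absence of the mark. A summit list holds no width or height, and a promoter rank depends on which summit falls in the window.

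The mean number of summits was lower in SAP30-KO1 under every alternative run. Counted as merged regions the lines overlapped, with 36779 and 35380 in parental cells against 33826 and 35502 in SAP30-KO1 cells. The promoter share, +1.09 percentage points as reported, was −0.476 with lists of equal length and −0.262 to 2.44 when each replicate was left out, so its direction is unsettled. The difference in summits per region, −0.0334, was −0.0670 to 0.00276 when each replicate was left out.

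With summits merged within 500 bp, 2858 regions were lost and 2063 gained. In the better-ranked 50% of each list 75 were lost and 46 gained, and 28 and 9 of these stood apart. With 10 kb as the distance, 588 lost regions stood apart. By rank in the whole list, 1443 shared regions and 243 promoters were better, and 389 promoters worse. A minimum of 5 points gave 4262 better and 4354 worse shared regions. A minimum of 20 gave 530 and 531, and 542 and 575 promoters. With lists of equal length 165 genes had fewer summits and 163 more.

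Leaving out each replicate relaxes every call by construction. It gave 2737 to 5441 lost and 2167 to 4129 gained regions, 1538 to 3061 and 1328 to 2510 standing apart, 4118 to 4526 better and 4192 to 4495 worse shared regions, 2201 to 2407 better and 2211 to 2398 worse promoters, and 450 to 530 genes with fewer and 161 to 199 with more summits. In the replicate block, where both same-numbered pairs had to change in one direction, 2989 shared regions were better and 3018 worse, 1724 and 1698 promoters, and 334 and 107 genes had fewer and more summits. Same-numbered libraries shared only a number, and the block moved no count by over 1.5 times.

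Among named genes, direction reversed for ARID1B (+1.75 points) and FSCN1 (+4.51) with a window of 3000 bp and for SIN3A (+10.5) with a window of 500 bp. In all 3 genes the window changed which summit was taken in some libraries. Of the other values recomputed for named genes, 653 kept their direction and their call and 82 kept their direction without passing. Leaving out a replicate ended the call of ITGA5 (−6.40) and MYH9 (−7.77) without parental replicate 1, S100A4 (+5.25) without parental replicate 2, HSP90AB1 (+7.97) and GAPDH (+5.67) without SAP30-KO1 replicate 2, and ADM (−6.21) and B2M (+8.60) without SAP30-KO1 replicate 1.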
